A study of Homo sapiens with 8 samples.

Results

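The regions described are the 723 PHF20L1 peaks of the final PHF20L1 list, taken without selection. They make up 14.8% of the 4870 peaks in the PHF20L1 and PHF20 lists, of which PHF20 holds 4147. PHF20L1 is a chromatin reader and a paralog of PHF20. Both carry Tudor domains and a PHD finger, and each is a subunit of the nonspecific lethal (NSL) complex, which holds the histone H4 acetyltransferase KAT8, WDR5, MCRS1, HCFC1, OGT and KANSL subunits. The NSL complex is known for binding near transcription start sites (TSSs) of broadly expressed genes, where acetylated histones mark active promoters.

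All libraries came from U2OS, a human osteosarcoma cell line. PHF20L1 was over-expressed with a triple HA tag, at its N terminus in 1 ChIP library and at its C terminus in 2, and each tag had 1 input library. PHF20 was over-expressed with the N-terminal tag alone, in 2 ChIP libraries and 1 input. One HA antibody served for both proteins. The peaks therefore report tagged protein made in excess, and protein and tag position cannot be told apart between the lists. By the study's methods, each list holds the peaks of the library with the strongest signal that met a peak in the other libraries kept, so that a PHF20L1 peak needed 3 libraries and a PHF20 peak 2. Numbers and widths of peaks therefore cannot be told apart from these rules when the lists are compared. The lists give only positions, with no height, score or read count. Width, in 1 library per protein, is the one measure of extent, the spread between libraries is unknown, and the intervals and p-values below cover counts of peaks or genes only.

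Sequences at the regions that carry the results are shown first, from hg38, plus strand, 5′ to 3′. LAMP1 (lysosomal membrane glycoprotein), ZNF518A (a zinc finger protein) and HEXA (a lysosomal hexosaminidase subunit) had the 3 widest promoter peaks. NUDCD3, a co-chaperone of dynein, and NAGPA, which uncovers the mannose tag of lysosomal enzymes, also had wide peaks. Windows are printed for 4 of these genes. Capitals mark the match, of 10 short motifs searched, that was nearest the peak centre: the E-box CACGTG, its longer form CACGTGAC read on the minus strand at LAMP1 as GTCACGTG, or the ETS-type ACTTCCGG. The windows are LAMP1 at chr13:113297019-113297078, outside any annotated gene body, NUDCD3 at chr7:44490686-44490745, outside any gene body, ZNF518A at chr10:96130387-96130416 and NAGPA at chr16:5033938-5033967, both in annotated UTRs.
LAMP1: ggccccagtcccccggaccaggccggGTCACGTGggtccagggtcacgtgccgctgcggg
NUDCD3: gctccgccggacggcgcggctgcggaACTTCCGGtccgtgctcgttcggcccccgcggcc
ZNF518A: ggggttgttttACTTCCGGgctttttgaac
NAGPA: gtgggctcgcctCACGTGactcaagtccca

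The 5 widest PHF20L1 peaks that overlapped no PHF20 peak are shown in the same way, for comparison with those above. They lie at DDB2 (DNA damage recognition, chr11:47214354-47214413), ZMYND8 (a chromatin reader, chr20:47357652-47357711), the CCT4 and COMMD1 promoter (a chaperonin subunit and a sorting protein, chr2:61888557-61888586, in a UTR), NEK4 (a kinase, chr3:52771131-52771190) and COPS4 (a COP9 signalosome subunit, chr4:83034958-83034987, in a UTR). Capitals mark the CCAAT-type motif AGCCAATC. Where no capitals are printed, none of the motifs occurred in the peak and its centre is shown.
DDB2: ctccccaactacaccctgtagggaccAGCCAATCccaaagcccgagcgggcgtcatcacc
ZMYND8: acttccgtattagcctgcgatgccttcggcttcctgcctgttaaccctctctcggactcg
CCT4 and COMMD1: gattctggccggccgcagtgtaataacggt
NEK4: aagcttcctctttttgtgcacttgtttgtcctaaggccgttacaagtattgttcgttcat
COPS4: tggagttcatcAGCCAATCcaaagtccaag

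PHF20L1 lay almost wholly at start sites. The peak centre was within 100 bp of a TSS in 399 of 723 peaks (55.2%, Wilson 95% interval 51.5 to 58.8), within 250 bp in 606 (83.8%) and within 500 bp in 665 (92.0%). By the promoter window used here, 1000 bp upstream to 500 bp downstream of any annotated transcript's TSS, 673 peaks were at promoters. A protein-coding gene had its window touched by 615 of these (85.1% of all peaks, interval 82.3 to 87.5), and 58 (8.02%) touched windows of noncoding genes alone. Most coding promoter peaks served 1 gene: 458 touched the windows of 1 coding gene, 149 of 2 and 8 of 3. The peaks did not lie to one side of the nearest start site. At 439 shared peaks with 1 coding gene and no head-to-head neighbour, distances were taken from the coding TSS nearest the PHF20L1 centre. The median signed distance was -3 bp (interval -14 to 5) for PHF20L1 and -10 bp (-29 to 9) for its PHF20 peak. Choosing the TSS by the PHF20L1 centre draws that centre's distance toward the start site, so these medians cannot be compared between the proteins. The PHF20L1 centre was upstream of the PHF20 centre in 215 of the 439 (49.0%, 44.3 to 53.6).

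**Figure D1:**
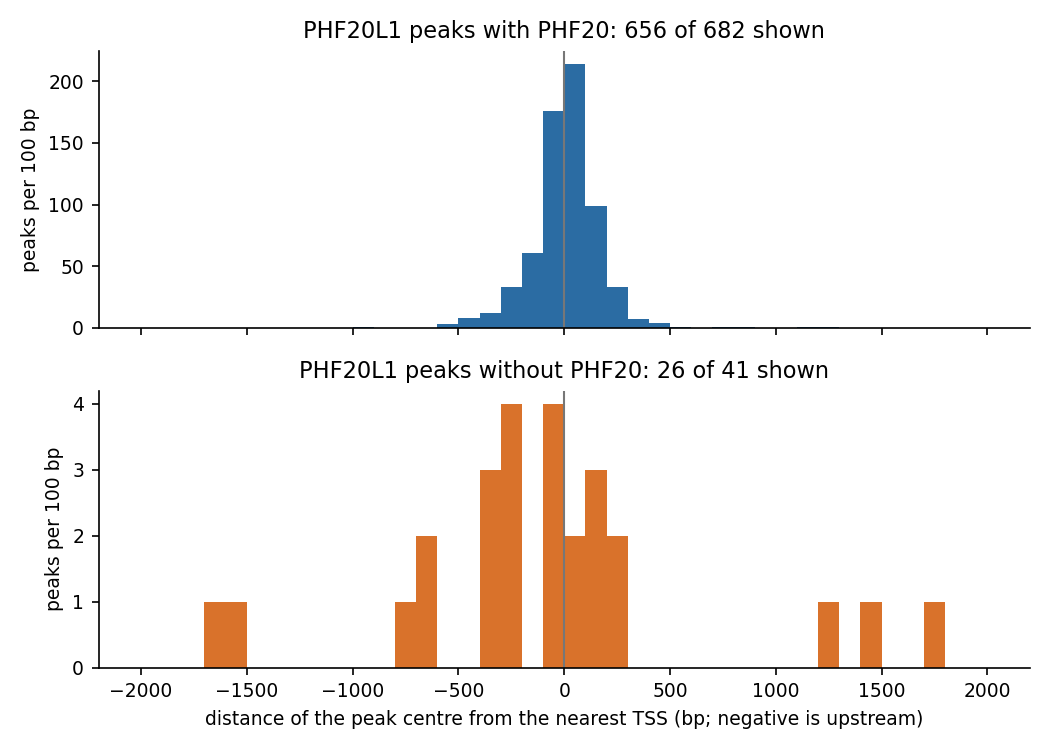
Number of PHF20L1 peaks per 100 bp of distance between the peak centre and the nearest annotated TSS (bp, negative upstream), for peaks that overlap a PHF20 peak (upper panel, 656 of 682 within 2000 bp) and for those that do not (lower panel, 26 of 41 within 2000 bp). The upper panel is centred on the start site, while the lower panel is spread.

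The peaks were narrow parts of PHF20 peaks. Of the 682 PHF20L1 peaks that shared at least 1 bp with a PHF20 peak, 625 lay wholly inside it (91.6%, 89.3 to 93.5), and the centres were a median of 79 bp apart (74 to 86). The PHF20L1 peak covered a median of 37.6% of the width of its PHF20 peak (35.9 to 39.2). The reverse was rare: 16 PHF20L1 peaks (2.35%) were wider than the PHF20 peak they met. These included KMT2A, a histone H3K4 methyltransferase, with 357 against 291 bp, the U7 snRNA gene RNU7-1, with 598 against 502 bp, and the U8 snoRNA gene SNORD118, with 512 against 488 bp. These 3 were picked out after their values were seen. Only 672 PHF20 peaks (16.2%) met a PHF20L1 peak, and 10 of them held 2 PHF20L1 peaks, among them those at CDK9, TRMU, ADPRHL1 and SECISBP2.

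**Figure D2:**
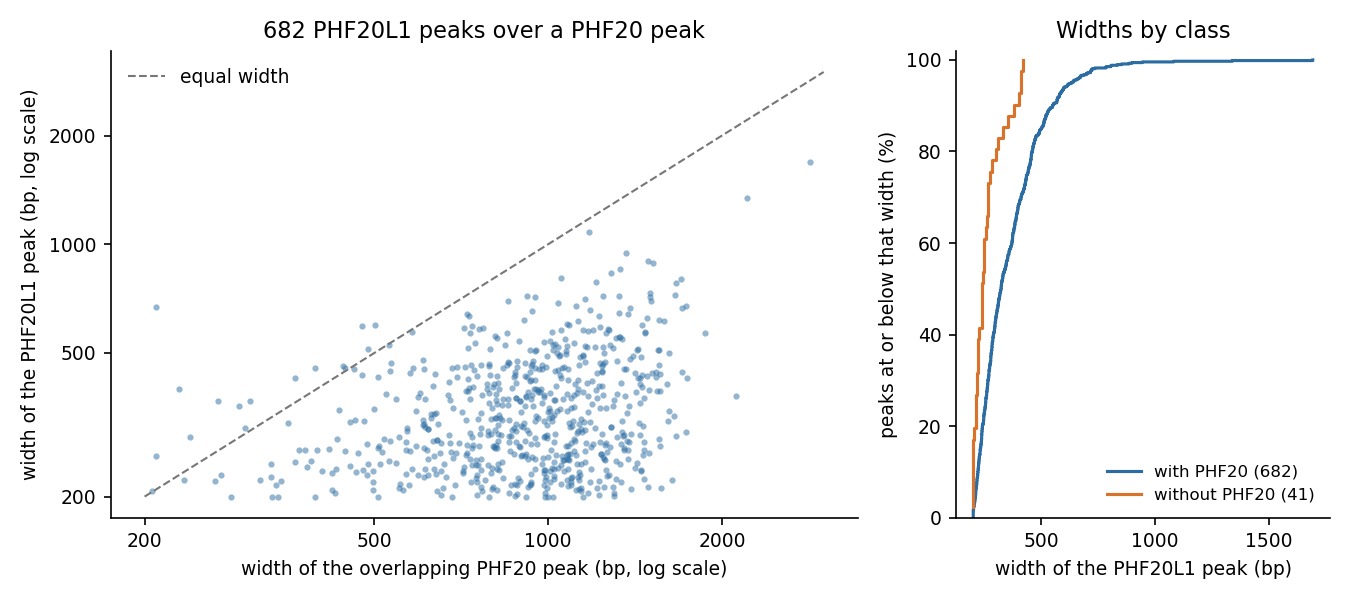
Left, width of each of 682 PHF20L1 peaks (bp, log scale) against the width of the overlapping PHF20 peak (bp, log scale), with the line of equal width. Right, cumulative percent of PHF20L1 peaks at or below each width, with (682) and without (41) a PHF20 peak. Nearly all points lie under the line, and no peak without PHF20 was wider than 418 bp.

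The median width was 314 bp (302 to 328), between extremes of 200 and 1693 bp. LAMP1 (chr13:113296320-113297658) had 1339 bp, ZNF518A (chr10:96129522-96130602) had 1081 bp, HEXA had 943 bp and CLCN7, the lysosomal chloride and proton exchanger (chr16:1474673-1475570), had 898 bp. They were followed by YIPF4, a Golgi membrane protein, at 885 bp, the ubiquitin ligase components FEM1B at 852 bp and RNF220 at 834 bp, ANKRD40 at 808 bp and the RNA editing enzyme ADAR at 803 bp. The list went on with the start sites shared by HECTD3 and UROD at 785 bp, NUDCD3 (chr7:44490359-44491141) at 783 bp, PGGT1B at 735 bp and the start sites of NAGPA and ALG1 (chr16:5033325-5034048) at 724 bp. CCDC71 had 719 bp, PIGG with ZNF721 715 bp and the RNA exonuclease DIS3L2 704 bp. Each of these peaks lay over a PHF20 peak that was wider still, 2207 bp at LAMP1 and 1176 bp at ZNF518A for example.

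The widest peak of all had no promoter. It covered chr17:74513704-74515396 (1693 bp) in an intergenic tandem repeat, 16924 bp from the nearest start site, that of CD300LB. Bases 17 bp apart were identical at 48.6% of its positions, the highest value for any spacing from 5 to 120 bp, where the median was 27.7%. The 6-letter sequence CATGTG, which is 1 base away from the E-box, occurred 54 times on both strands, against at most 3 times in any other PHF20L1 peak. CACGTG itself occurred 4 times. The repeat is shown at the match to TCATGTGA nearest the centre of the peak, in capitals (chr17:74514512-74514571). How reads from the repeat copies were placed was not tested.
CD300LB repeat: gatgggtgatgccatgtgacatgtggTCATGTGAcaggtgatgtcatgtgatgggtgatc

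The 41 peaks without PHF20 (5.67%, 4.21 to 7.60) differed from the other 682 in place, width and sequence. A promoter window was touched by 21 of 41 (51.2%, 36.5 to 65.7) against 652 of 682 (95.6%), an odds ratio of 0.0483 (2-sided Fisher's exact test, p adjusted over 14 features 1.5e-13). A CpG observed/expected ratio of at least 0.6 was found in 46.3% against 88.6% (odds ratio 0.112, adjusted p 2.8e-09). The ratio alone does not define a CpG island. The ETS-type sequence ACTTCCGG was within 250 bp of the centre in 1 of 41 against 158 of 682 (2.44% against 23.2%, odds ratio 0.0829, adjusted p 0.00189). Their median width was 240 bp (219 to 265) against 322 bp (308 to 336), and 17.1% against 52.2% reached the median of 314 bp (adjusted p 2.9e-05). The other 9 motifs did not pass the threshold. CACGTGAC was found in 3 of 41 against 65 of 682 (7.32% against 9.53%, adjusted p 1), and the CRE TGACGTCA in 0 of 41, which allows a share of up to 7.32%, against 47 of 682 (adjusted p 0.208). The promoter difference lay in narrow peaks. Of the 41, 8 were at least 300 bp wide and all 8 were at promoters, against 372 of the 384 shared peaks of that width (Fisher's exact test, p 1). With the same minimum on both lists 13 peaks lacked PHF20, of which 5 overlapped a narrower PHF20 peak (odds ratio 0.359, p 0.337, Fisher's exact test).

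Of these 41 peaks 21 were at coding promoters and 20 elsewhere. The promoter set resembled the shared promoters in base composition, with a median of 60.2% G and C (54.8 to 69.1) against 63.5% (62.6 to 64.2), while the other 20 had 39.2% (32.3 to 59.3). A G and C content below 45% was found in 2 of 21 promoter peaks, in 12 of the 20 outside promoters and in 22 of 652 shared promoter peaks (3.37%). The smallest width in the list, 200 bp, was that of 7 of the 41 (17.1%) and of 12 of the 682 (1.76%).

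**Figure D3:**
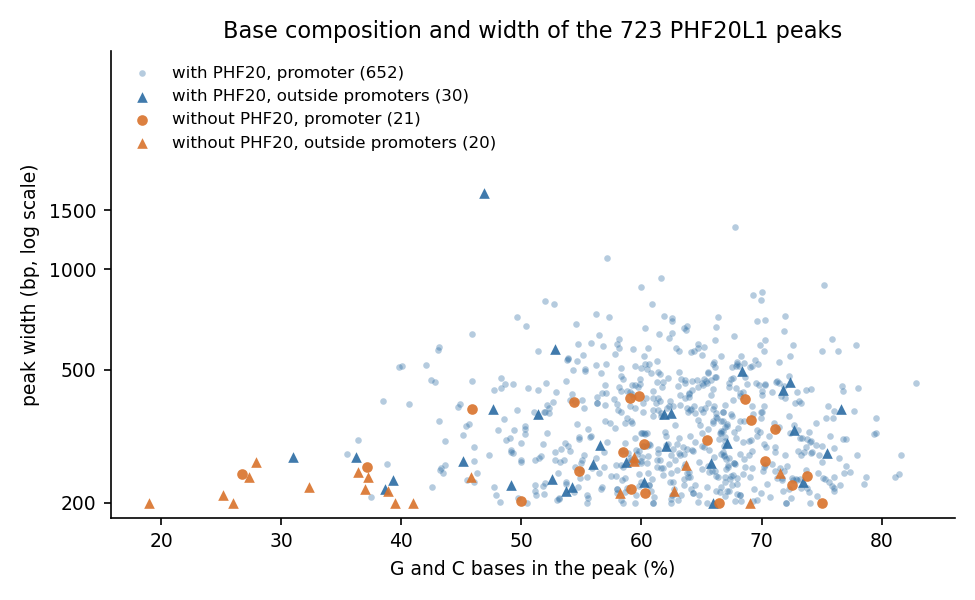
Width of each PHF20L1 peak (bp, log scale) against its percent of G and C bases, by overlap with PHF20 and by promoter, for all 723 peaks. The 20 peaks without PHF20 outside promoters include 12 below 45% G and C, while only 22 of the 652 shared promoter peaks lie there.

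The 21 promoter peaks without PHF20 touched 23 coding genes. DDB2, which recognises ultraviolet damage, had the widest of them (418 bp, chr11:47214356-47214773), followed by ZMYND8 (410 bp), the start sites shared by CCT4 and COMMD1 (408 bp), NEK4 (401 bp) and COPS4 (381 bp). Proteasome core subunits PSMA3 (284 bp) and PSMB1 (220 bp), the J-domain protein DNAJC8 (214 bp) and CCT4 act in protein turnover and folding. Of the 23 genes 5 were in any of the 31 gene lists, these 4 and DDB2, beside 169 of all 766 PHF20L1 genes. Genes of transcription were MEF2D (299 bp) and TFAP4 (240 bp), both DNA-binding factors, TAF6L (248 bp), a SAGA subunit, and SNAPC5 (200 bp), a subunit of the factor that activates snRNA genes. In mitochondria act MCAT (332 bp, fatty acid synthesis) and LRPPRC (243 bp, mRNA stability). Other promoters were those of MCRIP1 with PPP1R27 (353 bp), SBNO1 (307 bp), the iron exporter SLC40A1 (266 bp), CLASP1 (256 bp), the oxoprolinase OPLAH (226 bp) and the small GTPase RHOG (200 bp).

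In 4 of these 23 genes, CLASP1, LRPPRC and PSMB1 among them, PHF20 had a separate peak that touched a promoter window of the same gene. The CLASP1 peak also lay over RNU4ATAC, the gene of the U4atac snRNA, which sits inside CLASP1. The nearest PHF20 peak was 779 bp away at PSMB1 and 1191 bp away at TFAP4, and a median of 64453 bp away over the 21 (33837 to 100799). Outside promoters, 2 peaks were close to PHF20, the one upstream of PPP1R9B (222 bp away) and the one in LINC01135 (305 bp away). The latter lay at -31863 bp from the TSS of JUN, its nearest coding gene. The peaks at PSMB1, TFAP4, PPP1R9B and LINC01135 were the only ones of the 41 within 1500 bp of a PHF20 peak.

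The 20 peaks outside promoters were 10 between genes, 4 in introns, 3 upstream, 2 in exons and 1 downstream of a gene. Their nearest coding genes were COL16A1, SMAP2, TTLL7, SH2D4B, ARHGAP20, ZNF469, IMPA2, TFCP2L1, FN1, SH3BP4, BCAS1, WNT7B, GAP43, PDLIM5, ADAM19, CCN2, CREB3L2 and RIMS2, beside PPP1R9B and JUN. Several were far away, with the peak at 429891 bp from the TSS of TTLL7 and -183538 bp from that of FN1. The closest was PPP1R9B, at -1540 bp, and no link to these genes was tested. The peak in an intron of RIMS2, a synaptic gene, was 200 bp wide with 19% G and C, the lowest of all 723. None was wider than 273 bp.

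Counted by gene, 766 of 20033 coding genes had a PHF20L1 promoter peak (3.82%) and 4148 had a PHF20 promoter peak (20.7%). Of the PHF20 genes 747 also had PHF20L1 (18%), so that 97.5% of PHF20L1 genes were PHF20 genes. These shares are the background for the gene groups below, which were described and not tested. Of the 31 groups, 23 had a larger share of PHF20L1 genes than 3.82%. Counted among PHF20 genes alone, some groups were above 18%, such as lysosomal (42.9%) and proteasome genes (36.4%). Others were below it, such as DNA repair (14.3%), respiratory complexes II to V (11.5%), replication (10.5%) and Mediator (7.69%).

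**Figure D4:**
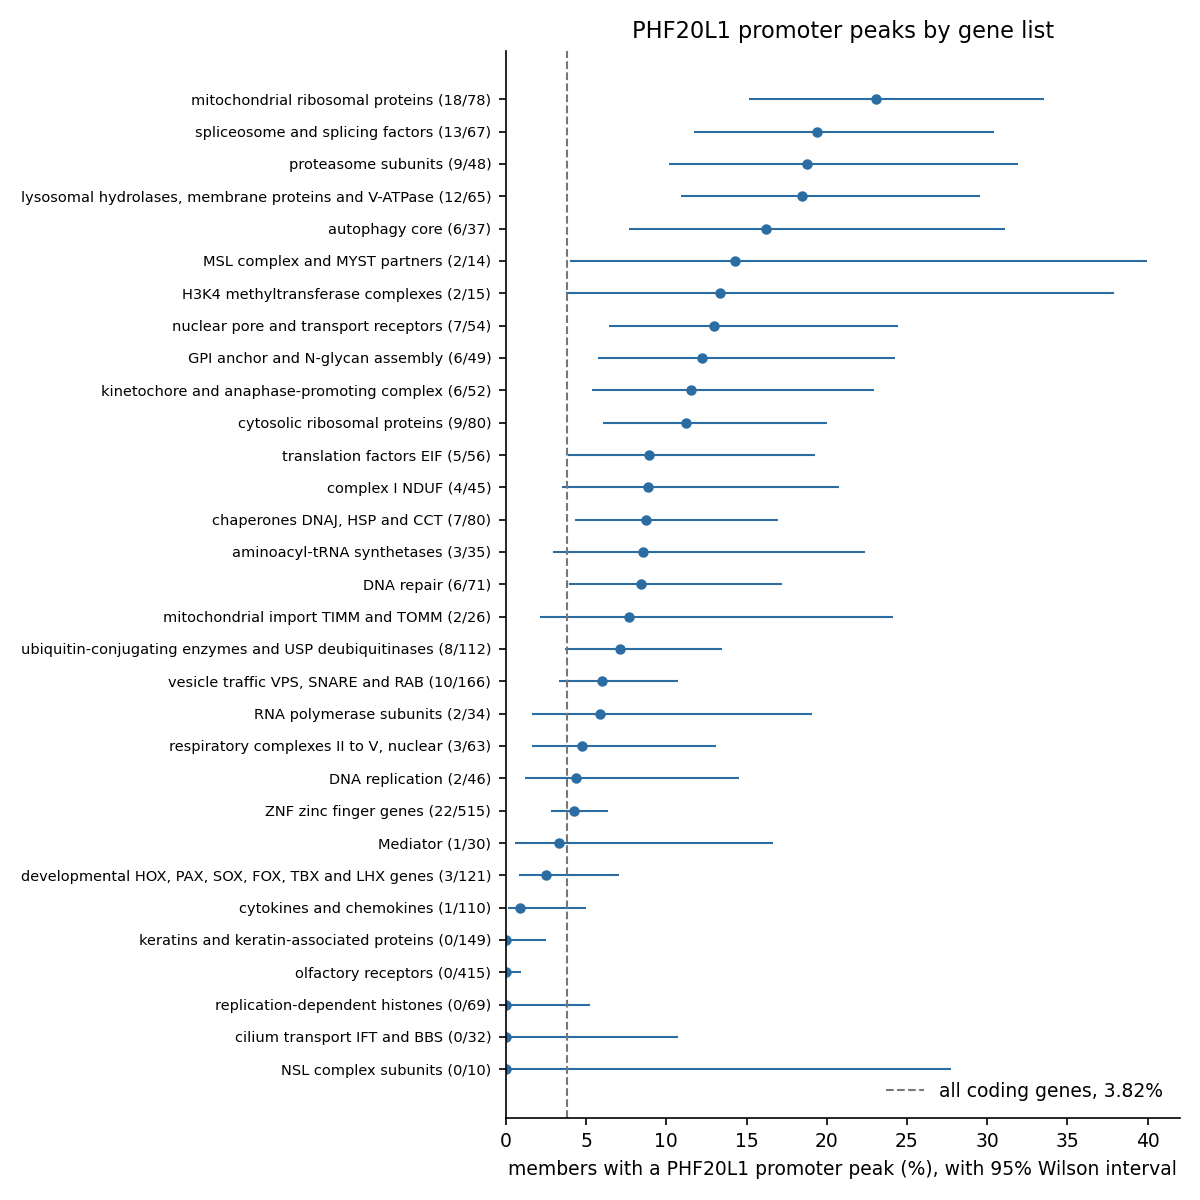
Percent of the members of each of 31 gene lists with a PHF20L1 promoter peak (points, with Wilson 95% intervals) and the share over all coding genes (dashed line, 3.82%). Mitochondrial ribosomal proteins stand highest at 23.1%, and 5 lists had no member with PHF20L1.

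None of the genes that encode the NSL complex itself had PHF20L1: 0 of 10, which allows a share of up to 30%. PHF20 was at 5 of them, with peaks of 1306 bp at PHF20L1, 740 bp at WDR5, 512 bp at MCRS1, 460 bp at KANSL2 and 412 bp at KANSL3, while KAT8, KANSL1, PHF20, OGT and HCFC1 had neither protein. Among related chromatin regulators, PHF20L1 was at the acetyltransferase gene KAT5 (373 bp) and ING4, a subunit of the KAT7 acetyltransferase complex (282 bp), 2 of 14 in the list of MSL complex and MYST partners. It was also at KMT2A (357 bp) and RBBP5 (330 bp), 2 of 15 genes of H3K4 methyltransferase complexes.

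Genes of splicing proteins and of splicing RNAs both carried peaks. PHF20L1 was at 13 of 67 spliceosome and splicing factor genes (19.4%), which is 35.1% of the 37 with PHF20. With peaks of at least 300 bp alone they were 6 of 67 (8.96%), where the share over all coding genes was 2.27%. SRSF11, a serine and arginine rich factor, had 519 bp, the Sm protein SNRPD3 469 bp, the U2 snRNP protein SNRPB2 430 bp and the Sm-like LSM5 422 bp.

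Spliceosomal snRNAs, apart from U6 and U6atac, are made by RNA polymerase II from short genes of their own. A PHF20L1 peak lay over 14 annotated snRNA genes, and 13 of the 18 snRNA genes under a PHF20 peak also had PHF20L1 (72.2%, 49.1 to 87.5), against 16.2% of all PHF20 peaks. They were RNU4-2 (571 bp) and RNU4-1 (233 bp), the 5 U5 genes or copies RNU5A-1, RNU5B-1, RNU5E-1, RNU5E-4P and RNU5A-8P (308, 394, 586, 208 and 279 bp), RNU2-2P (516 bp), the U1 variants RNVU1-6 (460 bp) and RNVU1-29 (441 bp), RNU11 (641 bp), RNU12 (452 bp), RNU7-1 of the histone mRNA processing snRNP (598 bp), and RNU4ATAC, the one without PHF20. Of all annotated genes and copies, PHF20L1 was at 2 of 143 for U1, 1 of 71 for U2, 2 of 90 for U4, 5 of 31 for U5 and 1 of 149 for U7. For U6 it was at 0 of 1276, for an upper limit of 0.235%, and PHF20 was at 2 of them, too few to compare with the other families. Genes for U6atac (0 of 42, up to 7.14%) and 7SK (0 of 294, up to 1.02%), also made by RNA polymerase III, had no peak of either protein. Most annotated snRNA genes are inactive copies, and several share near-identical sequence, so that reads could be placed on the wrong copy. Some lie inside the promoter windows of coding genes, RNU11 at TAF12 and RNU12 at POLDIP3 among them. This group was set up after the positions had been seen.

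Some snoRNAs are also made from promoters of their own. PHF20L1 lay over SNORD118 (the U8 gene, 512 bp), SNORD3A (207 bp) and SNORD3B-2 (451 bp) of the U3 family, and an annotated U3 copy on chromosome 17 (510 bp). These were 4 of 942 annotated snoRNA genes (0.425%) and 4 of the 8 under a PHF20 peak. Of the 58 peaks at noncoding promoters alone, 38 touched a lncRNA window, 9 an snRNA window and 5 a snoRNA window.

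Genes of RNA polymerase subunits and Mediator were near the background. PHF20L1 was at 2 of 34 polymerase genes, POLR3F (432 bp) and POLR2M (398 bp), and at 1 of 30 Mediator genes, MED28 (254 bp), although PHF20 was at 13 of the 30.

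Translation genes were counted by compartment. Mitochondrial ribosomal proteins had 18 of 78 (23.1%, 15.1 to 33.6), the largest share of the 31 lists in this setting, with 667 bp at MRPS23, 568 bp at MRPS34, 511 bp at MRPL4 and 492 bp at MRPL27. With peaks of at least 300 bp alone the share was 12.8%, under the 13.5% of autophagy genes, and with the closest TSS alone it was 17.9%, as for splicing genes. PHF20 was at 53 of these 78 genes (67.9%), also the largest share of the 31 lists. Of the 53 genes 34.0% had PHF20L1, under the 42.9% of lysosomal genes with PHF20. Cytosolic ribosomal proteins had 9 of 80 (11.3%), with 597 bp at RPL37, 467 bp at RPL29, 413 bp at RPS14 and 372 bp at RPS26. With the 300 bp minimum they had 4 of 80. The difference between the lists was not tested. Translation factors had 5 of 56, led by EIF2B1 (384 bp), EIF2D (373 bp), EIF1AD (322 bp) and EIF3M (212 bp), and aminoacyl-tRNA synthetases 3 of 35, namely YARS2 (491 bp), LARS2 (336 bp) and GARS1 (290 bp). The first 2 of these act in mitochondria alone.

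Respiratory chain genes had smaller shares than mitochondrial ribosomal proteins, a difference that was not tested. Complex I had 4 of 45 genes, NDUFB3 (372 bp), NDUFA13 (316 bp), NDUFS3 (300 bp) and NDUFB6 (244 bp). Complexes II to V had 3 of 63, ATP5PF (470 bp), COX16 (441 bp) and COX17 (278 bp). Mitochondrial import had 2 of 26, TOMM6 (410 bp) and TIMM9 (387 bp).

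Of proteasome genes 9 of 48 had PHF20L1 (18.8%, 10.2 to 31.9), and 3 of 48 (6.25%) had a peak of at least 300 bp, against 2.27% of all coding genes. PSME3 had 421 bp, PSMD14 419 bp, PSMD7 379 bp and PSMD12 299 bp, the last 3 being subunits of the regulatory particle. Ubiquitin-conjugating enzymes and USP deubiquitinases had 8 of 112, with USP8 at 531 bp, USP40 at 449 bp and UBE2L3 at 436 bp. Chaperones had 7 of 80, with CCT7 at 465 bp, HSPA4 at 426 bp, CCT4 at 408 bp and DNAJC2 at 260 bp. With the 300 bp minimum they had 3 of 80 (3.75%).

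Lysosomal genes included several of the widest peaks. Of the 28 lysosomal genes with PHF20, 12 also had PHF20L1 (42.9%, against 18% over all PHF20 genes), and these were 12 of 65 genes in the list (18.5%, 10.9 to 29.6). Besides LAMP1, HEXA and NAGPA they were the proton pump subunits ATP6V1H (644 bp), ATP6V1A (305 bp), ATP6V1C1 (217 bp) and ATP6V1G1 (213 bp), the protective protein CTSA (613 bp), GNPTG (441 bp), which helps build the mannose tag that NAGPA uncovers, and PPT1 (346 bp), TPP1 (219 bp) and CLN3 (200 bp), genes of neuronal ceroid lipofuscinoses. CLCN7 is a lysosomal gene outside the list. The other 16 genes with PHF20 alone included GAA, GLB1 and SCARB2.

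Autophagy genes numbered 6 of 37 (16.2%, 7.65 to 31.1): NBR1 (673 bp), ATG14 (611 bp), GABARAP (434 bp) and BECN1 (421 bp) had the widest peaks, BECN1 sharing its peak with PSME3. Vesicle traffic had 10 of 166 genes, with VPS33A at 616 bp, VPS51 at 584 bp, VPS13B at 521 bp and VPS50 at 494 bp. GPI anchor and N-glycan assembly had 6 of 49, with ALG1 at 724 bp, PIGG at 715 bp, PIGO at 512 bp and PIGC at 338 bp.

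Genome maintenance and nuclear transport were counted next. DNA repair had 6 of 71, among them FANCD2 (442 bp), DDB2 (418 bp) and RAD50 (403 bp). Replication had 2 of 46, the clamp loader subunit RFC1 (548 bp) and TOPBP1 (373 bp). Kinetochore and anaphase-promoting complex genes had 6 of 52, with NSL1 (a kinetochore gene unrelated to the NSL complex, 378 bp), CENPP (373 bp), ANAPC2 (317 bp) and CENPQ (269 bp). Peaks of at least 300 bp were at 3 of these 52 genes (5.77%), against 2.27% of all coding genes. Nuclear pore and transport genes had 7 of 54, with NUP133 at 428 bp, NUP214 at 374 bp, RANBP1 at 308 bp and IPO11 at 275 bp. With the 300 bp minimum they had 3 of 54 (5.56%).

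For 2 tissue-restricted families, olfactory receptors and keratins, the upper limit lay below the 3.82% of all genes. PHF20 too had no promoter peak at any gene of these 2 families. For the others in this paragraph the counts do not set them apart from it. PHF20L1 was at 0 of 415 olfactory receptor genes, which allows a share of up to 0.723%, at 0 of 149 keratin genes (up to 2.01%), at 0 of 69 replication-dependent histone genes (up to 4.35%) and at 0 of 32 cilium transport genes (up to 9.38%), of which PHF20 was at 12. Developmental factors had 3 of 121, HOXA7 (527 bp), SOX6 (296 bp) and HOXA4 (237 bp), and 2 of 121 with the closest TSS alone. SOX6 shared its peak with C11orf58, which has a start site 1 bp away on the other strand. The 1 cytokine gene of 110, IL5, shared its peak with RAD50, whose start site lies beside it. ZNF genes had 22 of 515 (4.27%), close to the 3.82% of all genes, with ZNF518A, ZNF721, ZNF302 (602 bp) and ZNF507 (550 bp) widest. They were 13.2% of the 167 ZNF genes with PHF20.

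Head-to-head start sites were common among the peaks. Of 615 coding promoter peaks 135 touched the windows of 2 coding genes on opposite strands with TSSs at most 1000 bp apart (22.0%, 18.9 to 25.4), against 508 of 2975 PHF20 coding promoter peaks without PHF20L1 (17.1%, 15.8 to 18.5). The odds ratio was 1.37 (2-sided Fisher's exact test, p 0.00549). Such pairs hold 298 of the 766 PHF20L1 genes (38.9%) and 3249 of all 20033 coding genes (16.2%). A peak at a pair counts 2 genes, which by itself raises the share among genes called from peaks. The same share of PHF20 genes was not counted. Pairs with wide peaks included HECTD3 with UROD, NAGPA with ALG1, ZNF721 with PIGG, POLDIP2 with TMEM199 (664 bp), TMEM203 with NDOR1 (654 bp), ITGA7 with BLOC1S1 (634 bp), and NEURL2 with CTSA. A single peak cannot be assigned to 1 gene of a pair.

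Windows of 14 coding genes held 2 PHF20L1 peaks and none held more. ALG1 had the largest summed width (1083 bp). Others were SCGB2B2 and ZNF302, which share their peaks (823 bp), the ataxin-like ATXN1L (737 bp), the kinesin light chain KLC1 (691 bp), C2orf42 (616 bp) and SECISBP2, a selenoprotein translation factor (547 bp). ADPRHL1 had 542 bp, and DDX31 with GTF3C4 shared 507 bp.

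The motif content of the promoter peaks was compared with that of the 3182 PHF20 promoter peaks without PHF20L1, in equal windows of 250 bp either side of the peak centre and on both strands. The letters ACTTCCGG and CACGTGAC had been found in these same peaks earlier, so that their presence is not independent of the data. ACTTCCGG was in 158 of 673 windows (23.5%, 20.4 to 26.8) against 14.7% (13.5 to 15.9) without PHF20L1 and 5.93% of all coding promoters (odds ratio 1.78, 2-sided Fisher's exact test, p adjusted over 10 motifs 7.3e-07). CACGTGAC, which holds CACGTG and is the core of the element known from lysosomal genes, was in 67 windows (9.96%, 7.92 to 12.4) against 5.28% and 3.38% (odds ratio 1.98, adjusted p 8.5e-05). The CRE TGACGTCA was in 44 (6.54%, 4.91 to 8.66) against 3.43% and 2.55% (odds ratio 1.97, adjusted p 0.00147). The GC box GGGGCGGGG was in fewer, 15.2% (12.6 to 18.1) against 19.8% and 23.9% (odds ratio 0.724, adjusted p 0.0122). The other 6 did not pass the threshold. CACGTG, which counts CACGTGAC too, was in 15.8% against 13.95% and 11.1% (adjusted p 0.376), the YY1-type AAGATGGCG in 4.90% against 6.29% and 2.93% (adjusted p 0.365) and the NRF1-type GCGCATGCG in 2.67% against 3.05% and 2.76% (adjusted p 1). The CCAAT-type AGCCAATC, the ZNF143-type ACTACAATT and the TATA box TATAAAAG, held by 4.23, 0.504 and 1.77% of all coding promoters, each had an adjusted p of 1.

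Against wide PHF20 peaks ACTTCCGG and TGACGTCA had odds ratios near 1, and GGGGCGGGG and CACGTGAC were no longer past the threshold. The comparison group was limited to the 520 PHF20 promoter peaks without PHF20L1 of 949 bp or more, the median of PHF20 peaks with PHF20L1. All 673 PHF20L1 promoter peaks stayed in, whatever the width of their PHF20 peak. The groups were thus not matched in width, and fewer peaks were compared. The odds ratio was 1.001 for ACTTCCGG (Fisher's exact test, adjusted p 1), 0.940 for TGACGTCA (adjusted p 1), 0.723 for GGGGCGGGG (adjusted p 0.0736) and 1.74 for CACGTGAC (adjusted p 0.0711), with none of the 4 past the threshold. Only the YY1-type AAGATGGCG passed, and it was rarer with PHF20L1 (odds ratio 0.496, adjusted p 0.0259). Of the 520 wide peaks 69 held CACGTG and 31 held CACGTGAC, against 106 and 67 of 673 with PHF20L1. Against all 3182 PHF20 promoter peaks without PHF20L1, the E-box difference lay in the longer form. Windows with CACGTG but no CACGTGAC were 5.79% (4.27 to 7.82) of PHF20L1 promoter peaks against 8.67% (7.75 to 9.70) without PHF20L1. Windows where CACGTGAC reads on both strands at 1 place were 22 of 673 (3.27%, 2.17 to 4.90) against 33 of 3182 (1.04%, 0.739 to 1.45) and 0.564% of all coding promoters. These last 2 counts were added after the first results were seen and were not tested.

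The position of matches relative to the peak centre was counted for each motif. Within 500 bp of the centre, 20% of the space lies within 100 bp. That inner space held 64 of 138 CACGTGAC matches (46.4%), 24 of 53 TGACGTCA matches (45.3%) and 79 of 229 ACTTCCGG matches (34.5%). The equal space from 100 to 200 bp held 38 CACGTGAC, 19 TGACGTCA and 89 ACTTCCGG matches. The inner space held 84 of 227 CACGTG matches (37.0%), sites of CACGTGAC included. A site where CACGTGAC reads on both strands counted as 2 CACGTGAC matches but as 1 CACGTG match. It held 39 of 263 GC boxes (14.8%) and 1 of 41 NRF1-type GCGCATGCG matches (2.44%). In PHF20 promoter peaks without PHF20L1 the same shares were 23.4% for CACGTGAC, 21.8% for CACGTG, 34.6% for TGACGTCA, 37.2% for ACTTCCGG and 21.5% for NRF1. Matches within 1 peak are not independent, so these shares are given without an interval. Counted by peak, in windows of 100 bp either side 7 motifs passed the threshold (Fisher's exact test). With PHF20L1, 4 were more frequent: CACGTGAC (odds ratio 3.27, adjusted p 3.0e-06), TGACGTCA (1.90, adjusted p 0.0443), CACGTG (1.65, adjusted p 0.00741) and ACTTCCGG (1.59, adjusted p 0.00741). The other 3 were less frequent: GGGGCGGGG (0.675, adjusted p 0.0483), AAGATGGCG (0.512, adjusted p 0.0483) and GCGCATGCG (0.138, adjusted p 0.0443).

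**Figure D5:**
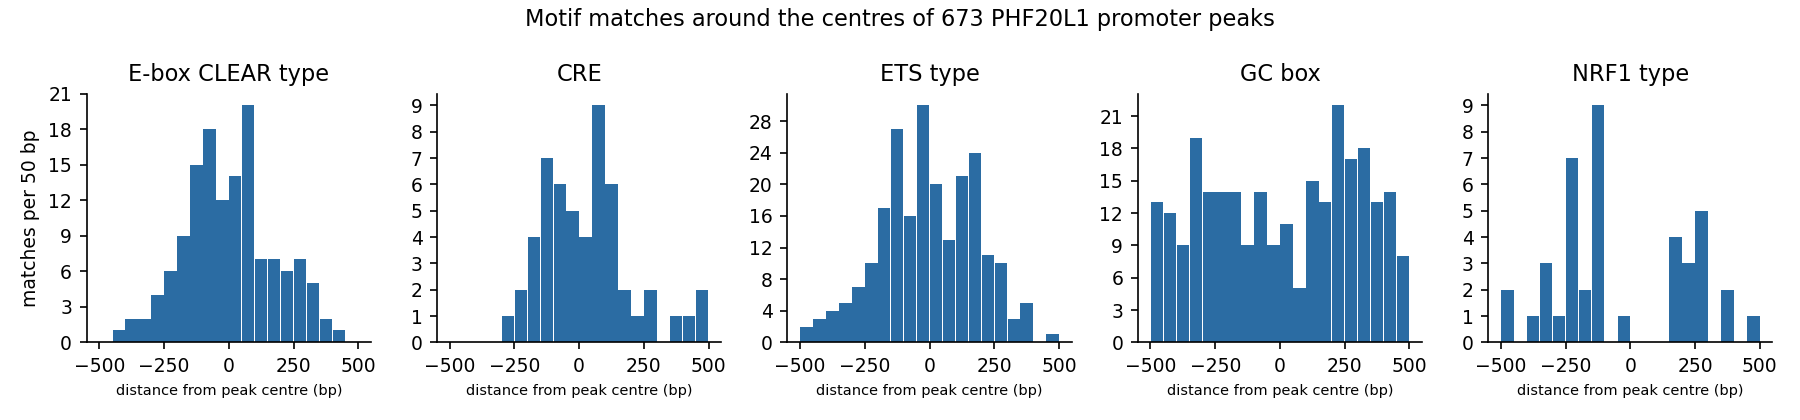
Matches per 50 bp (both strands) of 5 motifs against the distance from the peak centre (bp), over 673 PHF20L1 promoter peaks. Within 100 bp and from 100 to 200 bp, the CLEAR-type E-box had 64 and 38 matches, the CRE 24 and 19, the ETS type 79 and 89, the GC box 39 and 51 and the NRF1 type 1 and 15.

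The 2 leading motifs were also counted together. ACTTCCGG alone was in 144 promoter windows, CACGTGAC alone in 53, both in 14 and neither in 462. By quartile of PHF20L1 peak width, from narrowest to widest, CACGTGAC was in 8.19, 7.23, 9.52 and 14.9% of windows and the GC box in 23.4, 16.3, 11.9 and 8.93%. ACTTCCGG was in 24.0, 26.5, 24.4 and 19.0%. LAMP1 had 5 CACGTGAC matches in its window, the most of any promoter peak, and KAT5 had 4. The most ACTTCCGG matches, 4, were at the lncRNA MIATNB.

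CACGTGAC was within 250 bp of the centre in 8 of the 12 lysosomal promoter peaks (66.7%), against 9.96% of all PHF20L1 promoter peaks, and in 2 of 6 autophagy peaks (ATG14 and GABARAP). ACTTCCGG, in 23.5% of all PHF20L1 promoter peaks, was in 3 of these 12, in 6 of 9 proteasome peaks (PSMB1, PSMB7, PSMC2, PSMD12, PSMD14 and PSMG3), in 6 of 13 splicing peaks and in 3 of 18 mitochondrial ribosomal protein peaks. Lysosomal promoters hold CACGTGAC without PHF20L1 too, in the 250 bp either side of the outermost TSS: 5 of the 12 with both proteins, 4 of the 16 with PHF20 alone and 3 of the 37 with neither. The group counts by motif were chosen after the values were seen.

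The CACGTGAC match nearest the centre of 6 lysosomal peaks is aligned here in capitals, with the strand turned so that all read the same way, to show the bases around it. The peaks were picked for holding the match, so its presence is no result. NAGPA has it beyond 250 bp and CLCN7 is outside the list. PPT1, ATP6V1A and TPP1, which lack it within 250 bp, and some of the 8 that hold it are not shown. The coordinates are LAMP1 chr13:113297034-113297063 (minus strand), GNPTG chr16:1351924-1351953, NAGPA chr16:5033939-5033968, CLN3 chr16:28492059-28492088, CTSA chr20:45891299-45891328 and CLCN7 chr16:1475039-1475068, the others on the plus strand. GNPTG, NAGPA, CLN3, CTSA and CLCN7 lie in annotated UTRs. At NAGPA the match was 268 bp from the peak centre, and at the other 5 it was within 86 bp.
LAMP1: gaccctggaccCACGTGACccggcctggtc
GNPTG: gaccgtcacttCACGTGACcgcgcggcggc
NAGPA: tgggctcgcctCACGTGACtcaagtcccag
CLN3: gtttgtcggatCACGTGACagcacccgcgt
CTSA: gcgccggagttCACGTGACtcgtacacatg
CLCN7: gcgccggcggcCACGTGACgcgcgacgggg

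Counts by chromosome are given without a test. Chromosome 1 had 80 peaks, chromosome 2 had 63 and chromosome 17 had 61. PHF20L1 met 58 of 261 PHF20 peaks on chromosome 17 (22.2%, 17.6 to 27.6) and 15 of 152 on chromosome 14 (9.87%), against 16.2% over all. The X chromosome had 6 peaks and PHF20L1 at 0.698% of its coding genes, where PHF20 was also low, at 5.01%. The gene-rich chromosome 19 had 25 peaks and PHF20L1 at 2.03% of its coding genes, and PHF20 was at 14.97% of them, against 20.7% of all. The files do not give chromosome copy number in U2OS, and its part in these shares was not tested.

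Shared peaks outside promoters numbered 30, with a median width of 278 bp (261 to 367). Beside the repeat on chromosome 17, they included a peak of 578 bp at chr15:24772830-24773407, at -50519 bp from the TSS of the imprinted gene SNRPN, and another of 295 bp in an SNRPN intron (chr15:24878180-24878474). Pairs of peaks lay between genes, nearest to ITPKB-IT1 (459 and 220 bp, over the same PHF20 peak) and to GNA12 (263 and 368 bp). These loci were picked out after their positions were seen.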

How the data were processed

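The authors mapped HA ChIP-Seq reads to hg38, called peaks against inputs and deposited 1 list per protein, the peaks of its best library that overlapped peaks of the others. Submitters' processing notes name Bowtie 1.1.2 and MACS2 2.2.7.1. The deposited values are positions (chromosome, start and end in bp) alone. Library depth is not in the lists, so precision rests on peak counts. 1 PHF20 replicate had been removed by the authors.

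Peaks were placed on genes of GENCODE 44, a later release than the authors used (20033 coding), and on hg38 with Python 3.11.15, numpy 2.4.6, scipy 1.17.1 and pysam 0.24.0. Plots used matplotlib 3.10.9. Overlap needed 1 bp. Shares have Wilson 95% intervals and medians order-statistic 95% intervals. A count of 0 is given with the share that 3 counts make. Peak classes were compared by 2-sided Fisher's exact test with Benjamini-Hochberg adjustment at 0.05. Functions were tested on simulated data with planted overlaps.

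Members, gene lists, motifs and tests were chosen with earlier results of these data known. Named genes were those of the NSL complex, NAGPA, NUDCD3 and LAMP1, the 20 widest peaks, all peaks without PHF20, up to 10 genes with 2 or more peaks and up to 4 genes per list by peak width; part of these is not reported here. Exceptions are stated in the text. Alternatives changed overlap, windows, TSS choice and minimum width.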

Additional observations from a re-analysis of the deposited data

How the results depend on the processing

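No paired analysis was possible because the deposited lists hold 1 filtered set of peaks per protein and no measurement per library, and no library could be left out for the same reason. The count of 41 peaks without PHF20 became 44 when 50% of the PHF20L1 peak had to be covered and 38 when PHF20 within 1000 bp counted. It became 553 when 50% of both peaks had to be covered, since PHF20 peaks are wider, and 13 with peaks of at least 300 bp alone in both lists, 5 of which overlapped a PHF20 peak that this minimum removed. With the minimum on the PHF20L1 list alone, a choice made after seeing the data, it was 8, and their promoter share was 100% in place of 51.2%. The promoter share of 93.1% was 85.1% with coding transcripts, 84.5% with the outermost TSS of each gene and 96.9% for peaks of at least 300 bp. The width minimum lowered the coding genes from 766 to 455, the share of PHF20 genes with PHF20L1 from 18.0% to 11.8% and, set on both lists, moved the promoter contrast between peaks without and with PHF20 from an odds ratio of 0.0483 to 0.359 (Fisher's exact test, p 0.337). The closest gene alone gave a PHF20L1 share of 16.6%.

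Motifs past the threshold numbered 4 of 10, and 7 with windows of 100 bp either side. Against wide PHF20 peaks, with no width limit on the PHF20L1 group, 1 passed. Odds ratios there were 1.001 for ACTTCCGG, 1.74 for CACGTGAC, 0.723 for GGGGCGGGG and 0.940 for TGACGTCA, which turned direction. The causes were not tested. ACTACAATT (3.16 with windows of 100 bp) and TATAAAAG (1.16 against wide peaks) also turned direction, neither past the threshold in any setting. The lysosomal peaks with CACGTGAC, 8 of 12, were 6 and 9 with windows of 100 and 500 bp, a choice made after seeing the data. Of 62 list shares recomputed, 10 left their interval, 9 of them with peaks of at least 300 bp. Depth limits what narrow or missing peaks can show, and it cannot be read from these lists.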
